A study of Mus musculus with 12 samples.

Results

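Complexes III, IV and V are the later enzymes of oxidative phosphorylation in the inner mitochondrial membrane. Complex III, the cytochrome bc1 complex, passes electrons from ubiquinol to cytochrome c. Complex IV, cytochrome c oxidase, passes them on to oxygen, and complex V, the ATP synthase, uses the proton gradient that results to make ATP. Mitochondrial DNA encodes cytochrome b of complex III and some subunits of complexes IV and V, and the remaining subunits come from genes in the nucleus whose proteins are imported.

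The genes described here are the nuclear-encoded subunits of these complexes. They were taken by name: protein-coding genes outside the mitochondrial chromosome whose full names begin with ubiquinol-cytochrome c reductase, cytochrome c oxidase subunit or ATP synthase, with names that contain assembly left out. This gave 46 of the 58735 genes in the table, 9 for complex III, 17 for complex IV and 20 for complex V. Cytochrome c1, a subunit of complex III under another name, is not among the 46 and is given below with the other genes of the pathway.

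RNA-seq was performed on 12 libraries labelled as U2OS, a human osteosarcoma cell line, in 4 groups of 3. The study's methods name another osteosarcoma line, HOS, for transient transfection, a different library kit from that in the labels and fewer replicates per condition, and these differences could not be settled here. The blank group had no agent named in its labels, the siSRSF1-2 and siSRSF1-3 groups received 2 different small interfering RNAs against SRSF1, a splicing factor, and the OE-LINC01134 group overexpressed the long non-coding RNA LINC01134. The labels give neither a dose nor a time, though the study's methods state an siRNA concentration and a harvest time in the passage that names HOS. The labels name no library with a control siRNA or an empty vector, so the effects of transfection and of each agent cannot be told apart. The libraries of a group are labelled as replicates without saying that they came from separate cultures, so p-values measure the spread between these libraries, which may be technical.

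In each library between 26237763 and 32954539 reads fell on genes. SRSF1 stood at 19.8 to 35.9 FPKM (fragments per kilobase of gene, scaled to library size, as deposited) in blank, at 7.09 to 7.46 with siSRSF1-2 (limma log2 fold change -1.72 ± 0.23 SE, adjusted p = 0.0050) and at 3.33, 6.81 and 7.90 with siSRSF1-3 (-2.09 ± 0.38, adjusted p = 0.052). LINC01134 stood at 0.497 to 0.791 FPKM in blank and at 878 to 1279 with OE-LINC01134 (10.50 ± 0.22, adjusted p = 1.2e-05). The exact two-sided permutation p was 0.1 in each of these 3 comparisons, the smallest that 3 against 3 libraries allow. Of the mesenchymal genes of the line, VIM (68.7 to 248 FPKM), COL1A1, SPARC and RUNX2 were present and COL1A2 was at most 0.0131 FPKM, while the blood gene PTPRC and the liver gene ALB were at most 0.0559. The epithelial genes EPCAM and CDH1 and the endothelial gene PECAM1 were also chosen as markers. Their values are not given here, so PTPRC and ALB do not stand for all other cell types.

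Several libraries stood apart from their groups. Blank replicates 2 and 3 were close, though further apart than counting noise alone would put them (chi-square per degree of freedom 3.06). So were OE-LINC01134 replicates 1 and 3 (2.23) and the 3 siSRSF1-2 libraries (2.8 to 3.51). Blank replicate 1 and OE-LINC01134 replicate 2 differed from their groups by 79.7 to 83.8. OE-LINC01134 replicate 2 correlated more closely with blank replicate 1 (r = 0.952 across genes) than with its own group (0.940 and 0.941). Pairs of siSRSF1-3 libraries gave 142 to 525, and replicate 3 correlated more closely with the siSRSF1-2 libraries (0.958 to 0.960) than with siSRSF1-3 replicates 1 and 2 (0.861 and 0.922). For the subunit genes, counts and medians that rest on these libraries are given by library or also without them.

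In blank cells the subunit genes covered a wide range of levels. The highest in blank were UQCRH in complex III, the hinge protein, COX8A in complex IV, the broadly expressed form of subunit 8, and ATP5F1B in complex V, the catalytic beta subunit. UQCRH had 163, 153 and 162 FPKM in the blank libraries, COX8A had 342, 271 and 280, and ATP5F1B had 287, 239 and 249. UQCRQ, a small accessory subunit of complex III, had 151, 137 and 129, and was the highest of its complex by the mean of all 12 libraries, with 643 FPKM in siSRSF1-3 replicate 1. These are levels per length, but the lengths in the file join all annotated exons of a gene and reach 11297 bases for ATP5S and 10908 for ATP5F1A, so FPKM understate the level of such genes.

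**Figure D1:**
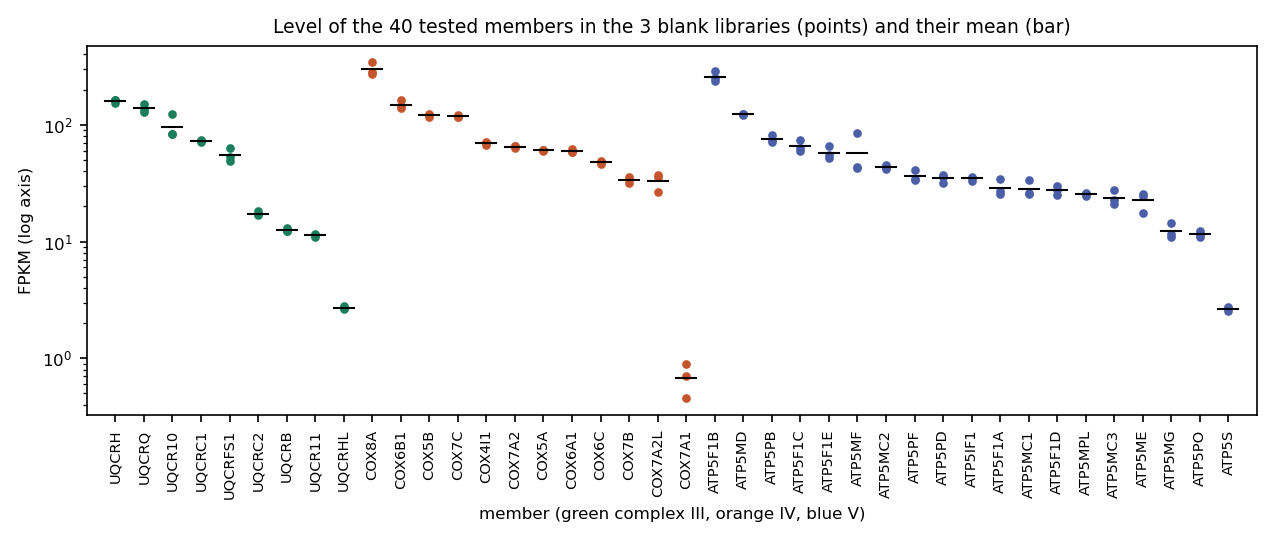
FPKM (log axis) of the 40 tested genes in the 3 blank libraries (points) with their mean (bar), by complex. COX8A at 298 FPKM and ATP5F1B at 258 have the highest means, and COX7A1 at 0.684 the lowest.

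Within complex III UQCRH had a mean of 159 FPKM in blank and its intronless-copy relative UQCRHL 2.70, and reads of such a pair may be shared between them. The core proteins UQCRC1 and UQCRC2 had means of 72.3 and 17.4, and UQCRFS1, the Rieske iron-sulfur protein that takes part in electron transfer, 54.8. In complex V the alpha subunit ATP5F1A had a mean of 29.0 against 258 for its partner beta, ATP5F1B. Their lengths in the file are 10908 and 2322 bases, which widens this gap. By reads the blank libraries had 10281, 7949 and 9738 of ATP5F1A against 18481, 15741 and 18935 of ATP5F1B. The means of the central stalk genes ATP5F1C, ATP5F1D and ATP5F1E were 65.5, 27.6 and 57.3 FPKM, and that of the inhibitor ATP5IF1 was 34.6.

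The pairs of isoforms that replace each other in a complex were strongly unequal. COX4I2, the lung form of subunit 4, had 0 reads in 11 libraries and 1 read in siSRSF1-3 replicate 3, while COX4I1 had 66.5, 70.1 and 71.4 FPKM in blank. The muscle form COX6A2 had at most 3 reads in any library, against 58.2, 58.8 and 61.5 FPKM of COX6A1 in blank. The testis form COX6B2 had 0.0568, 0.120 and 0.144 FPKM in blank, against 163, 139 and 144 for COX6B1. COX7A1, the heart and muscle form of subunit 7A, had 0.897, 0.455 and 0.699 FPKM against 66.3, 62.7 and 65.8 for COX7A2.

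Besides these minor forms, COX7B2, COX8C and the ATP synthase copy ATP5MGL had at most 4 reads in any library. COX6B2 reached 30 reads in siSRSF1-3 replicate 1. These 6 genes (COX4I2, COX6A2, COX6B2, COX7B2, COX8C and ATP5MGL) had means under 0.5 FPKM over the 12 libraries and were not tested. The 40 tested genes comprised 9 of complex III, 12 of complex IV and 19 of complex V, among 17538 genes tested in all. A library with 0 reads still allows up to 3 by counting error alone.

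Together the 46 genes took 0.595 to 0.612% of the reads on genes in the blank libraries. They took 0.482 to 0.497% with siSRSF1-2 and 0.542 to 0.570% with OE-LINC01134. With siSRSF1-3 the shares of replicates 1, 2 and 3 were 1.17, 0.903 and 0.570%. The first 2 libraries lay above every blank library and the last below.

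**Figure D2:**
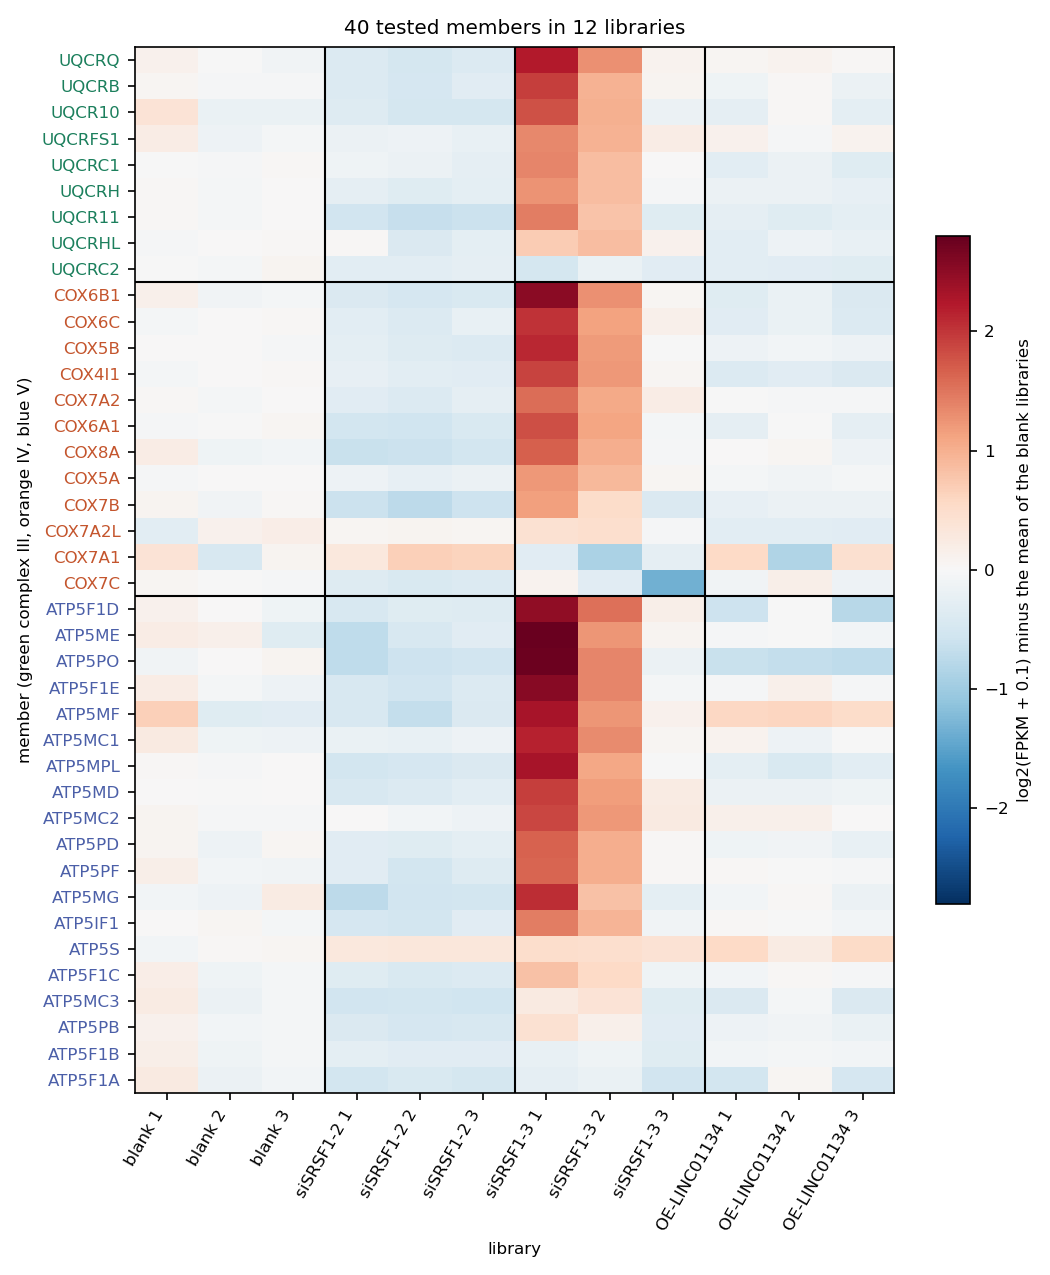
Difference from the mean of the blank libraries in log2(FPKM + 0.1) for the 40 tested genes (rows, by complex) in the 12 libraries (columns). With siSRSF1-2 nearly all rows are a little lower, and with siSRSF1-3 replicate 1 is the highest of the 3 libraries in 33 of 40 rows and replicate 3 the lowest in 38.

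With siSRSF1-2, subunit genes of all 3 complexes were lower than in blank, by a similar and small amount. The median log2 fold change was -0.38 over the 40 tested genes, against 0.02 over all genes tested. It was -0.29 in complex III, -0.33 in complex IV and -0.43 in complex V. No subunit gene passed the threshold, which was an adjusted p below 0.05 together with a change beyond 1 on the log2 scale (0 of 40), which 2.22% of all genes passed upward and 2.73% downward. The count was also 0 for unadjusted p below 0.05 and that size of change, where 3.06% of all genes were higher and 3.43% lower, and 0 with limma's voom on the recovered reads.

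Without a minimum fold, 29 of the 40 genes fell and 1 rose at an adjusted p under 0.05 (limma), where 12.8% of all genes fell and 14% rose. The 29 were 5 of 9 in complex III, 10 of 12 in complex IV and 14 of 19 in complex V, with log2 fold changes between -0.18 and -0.64. In 33 of 40 genes all siSRSF1-2 libraries lay below all blank libraries, where 24.2% of all genes did so, and in ATP5S all lay above (25.3%). By sign 37 genes were lower and 3 higher, where 48.3% and 51.7% of all genes were. In bulk libraries fewer cells of a kind and less RNA per cell cannot be told apart. The 29 became 12, 8 and 12 when siSRSF1-2 replicate 1, 2 or 3 was left out, where 5.74, 5.34 and 5.27% of all genes fell. They became 0, as did every call over all genes in either direction, when the near-identical libraries were averaged (a choice made after seeing the data), which leaves 2 blank values and a lone siSRSF1-2 value. With all 4 groups in 1 fit, where the spread of siSRSF1-3 enters, they also became 0 (2.01% of all genes were then lower).

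COX7B, a small subunit of complex IV, changed most. It had 35.4, 31.5 and 34.5 FPKM in blank and 22.2, 20.2 and 22.5 with siSRSF1-2. The groups did not overlap, and the log2 fold change was -0.64 ± 0.07 (SE, limma adjusted p = 0.0035). The gene lies on chromosome X at 77899438 to 77907373 in the file's coordinates, for which no human build is named.

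UQCR11, a small accessory subunit of complex III, had the smallest adjusted p of the 40. It had 11.6, 10.9 and 11.4 FPKM in blank and 7.72, 7.18 and 7.46 with siSRSF1-2, again without overlap. The log2 fold change was -0.60 ± 0.06 (limma adjusted p = 0.0029). In complex V the smallest adjusted p was that of ATP5MPL, a small membrane subunit, which had 26, 24.7 and 25.5 FPKM in blank and 17.8, 18.4 and 19.3 with siSRSF1-2 (-0.46 ± 0.06, adjusted p = 0.0045).

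The genes that fell spanned the parts of the ATP synthase. Those of the catalytic F1 head, ATP5F1A (-0.48) and ATP5F1B (-0.31), fell, as did those of the central stalk, ATP5F1C (-0.38), ATP5F1D (-0.38) and ATP5F1E (-0.45). All 4 genes of the peripheral stalk fell, from -0.30 for ATP5PD to -0.61 for ATP5PO, the oligomycin sensitivity conferral protein. ATP5IF1, the inhibitor that stops the enzyme from running in reverse, fell by 0.43 on the log2 scale.

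The 10 genes that did not pass in either direction included ATP5MC2 and ATP5MC1, genes of the c ring. ATP5MC2 had a log2 fold change of -0.07 ± 0.06 and ATP5MC1 of -0.18 ± 0.12, whereas ATP5MC3 fell by 0.54. In complex III the Rieske protein UQCRFS1 (-0.18 ± 0.10, adjusted p = 0.22) and the core protein UQCRC1 (-0.18 ± 0.06, adjusted p = 0.075, limma) did not pass. COX7A2L, which joins complexes III and IV into supercomplexes, had a value of 0.07 ± 0.13. The rest of the 10 had larger changes with wide SE. ATP5MF (-0.50 ± 0.28), ATP5ME (-0.49 ± 0.17), UQCR10 (-0.45 ± 0.16) and UQCRHL (-0.22 ± 0.13) were lower and COX7A1 (0.52 ± 0.26) higher (limma adjusted p 0.087 to 0.26). The gene that rose at an adjusted p under 0.05 was ATP5S, named as factor B of the ATP synthase. It had 2.52, 2.71 and 2.75 FPKM in blank and 3.29, 3.35 and 3.35 with siSRSF1-2 (0.32 ± 0.08, limma adjusted p = 0.033).

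**Figure D3:**
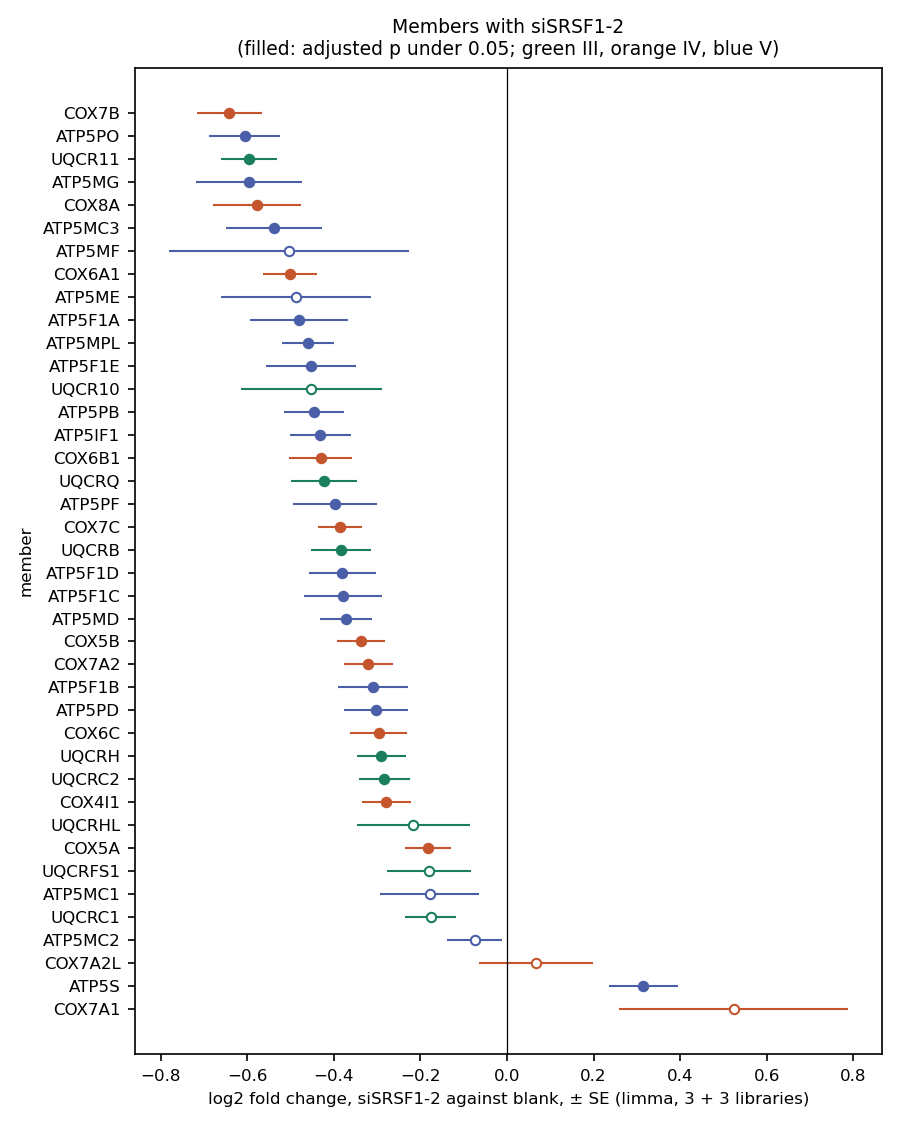
Log2 fold change with SE (limma, 3 + 3 libraries) of the 40 tested genes with siSRSF1-2 against blank, sorted by size, with filled points where the adjusted p is under 0.05. The filled points number 29 below 0 and 1 above it, ATP5S, and none lies beyond 1 in either direction.

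With siSRSF1-3 the same genes were higher than in blank on average, but the libraries disagreed. Over the 40 genes the log2 fold change had a median of 0.88, against -0.01 over all genes tested, with 0.75 in complex III, 0.92 in complex IV and 0.91 in complex V. By sign 35 of 40 genes were higher and 5 lower, where 49.3% of all genes were higher and 50.7% lower. With the FPKM of each library scaled to 1 common sum this split was 30 and 10. No gene passed the threshold (0 of 40), which 0.331% of all genes passed upward and 0.929% downward, and limma's voom on the recovered reads also called 0. Without a minimum fold the count was 0 as well, where 0.342% of all genes rose and 0.935% fell. For unadjusted p below 0.05 and that size of change, 4 genes were higher and 0 lower, where 7.57% of all genes were higher and 7.24% lower.

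The difference came from replicates 1 and 2. In replicate 1 the median gene stood at 3.12 times the blank mean, with 29 of 40 genes over 2 times (19.7% of all genes). In replicate 2 the median gene stood at 1.96 times, with 19 genes over 2 times (12.1%). In replicate 3 it stood at 0.988 times, with 0 genes over 2 times (4.44%). These folds are of FPKM as deposited, which summed to 611084, 410612 and 302504 in replicates 1, 2 and 3. In blank the sums were 301921 to 324607, so the size of the folds depends on the scaling. With equal sums the median log2 fold change of the 40 genes over the group was 0.44, and that of all genes -0.44. In 36 genes replicate 1 lay above every blank library (41% of all genes) and in 35 replicate 2 did (38.7%). Replicate 3 lay above every blank library in 11 genes, 27.5% of the 40 against 34.9% of all genes, and below in 12, 30% against 30.4%.

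Leaving out replicate 3 raised the median to 1.33, and 28 of 40 genes then passed the threshold, all higher (2192 genes passed upward and 1992 downward over all genes). Leaving out replicate 1 lowered the median to 0.51 with 0 genes past the threshold, which 0.0741% of all genes then passed (1 upward and 12 downward). With replicate 3 alone the median was -0.02. In 11 genes all 3 siSRSF1-3 libraries lay above all blank libraries (19.2% of all genes did so) and in 3 they lay below (18%). The 27.5% that 11 of 40 makes is to be read beside that 19.2%.

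**Figure D4:**
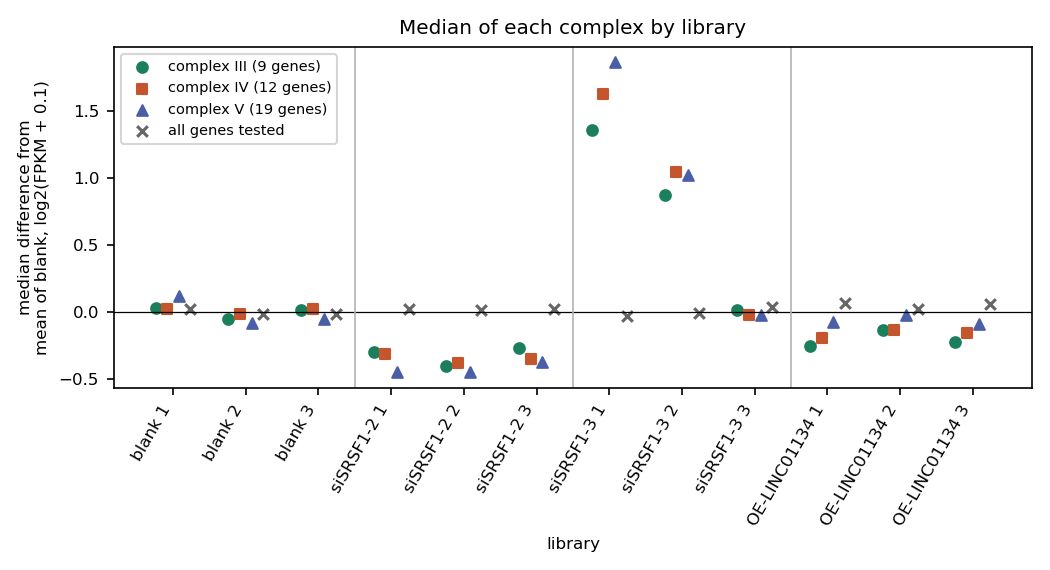
Median difference from the mean of the blank libraries, in log2(FPKM + 0.1), for the tested genes of each complex and for all genes tested, in each library. In siSRSF1-3 the complex V median is 1.86, 1.03 and -0.02 in replicates 1, 2 and 3, while the median of all genes stays between -0.03 and 0.04.

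ATP5MC2, a gene for subunit c of the membrane ring, had the smallest adjusted p of the 40 with siSRSF1-3. It had 45.1, 42.0 and 42.2 FPKM in blank and 157, 99.7 and 51.4 with siSRSF1-3. All 3 libraries lay above blank, the last by little, and the log2 fold change was 1.11 ± 0.39 (SE, limma adjusted p = 0.13). It passed without replicate 3, with 1.54 and an adjusted p of 0.012.

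COX7A2 of complex IV had 66.3, 62.7 and 65.8 FPKM in blank and 193, 136 and 75 with siSRSF1-3 (0.95 ± 0.35, limma adjusted p = 0.14). UQCRFS1 of complex III had 62.6, 49.1 and 52.5 FPKM in blank and 138, 107 and 63.0 with siSRSF1-3 (0.84 ± 0.32, adjusted p = 0.145). Replicate 3 of UQCRFS1 exceeded blank replicate 1 by less than 1 FPKM. Without replicate 3 both passed the threshold, at 1.32 and 1.16.

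Some genes spanned far wider ranges between the siSRSF1-3 libraries. ATP5PO had 78.6, 30.2 and 10.2 FPKM, against 10.9, 11.7 and 12.2 in blank, so replicate 1 was 7.67 times replicate 3. COX6B1, which lies where the complex IV dimer meets, had 854, 359 and 155 FPKM, against 163, 139 and 144 in blank. The SD of the log2 values among the siSRSF1-3 libraries had a median of 0.811 over the 40 genes, against 0.395 over all genes tested. In blank it was 0.0971, against 0.223 over all genes.

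A few genes did not follow this pattern. UQCRC2, a core protein of complex III, had 17.1, 16.8 and 18.2 FPKM in blank and 12.2, 15.2 and 13.8 with siSRSF1-3 (-0.34 ± 0.17). The F1 head genes ATP5F1A (34.0, 25.6 and 27.3 in blank; 24.2, 25.5 and 20 with siSRSF1-3) and ATP5F1B (287, 239 and 249; 223, 239 and 203) also lay below blank in all 3 libraries, ATP5F1B only just, since siSRSF1-3 replicate 2 (238.505) and blank replicate 2 (238.509) were nearly equal. These 3 are the genes whose siSRSF1-3 libraries all fell below blank, and none passed the test (limma adjusted p 0.21 to 0.54).

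COX7C, a small subunit of complex IV, had 122, 117 and 115 FPKM in blank and 127, 94.6 and 46.2 with siSRSF1-3. Replicate 1 lay a little above every blank library and replicates 2 and 3 below, so the order of the libraries was kept. Its replicate 3 was the lowest of the 40 genes relative to blank, at 0.391 times the blank mean. ATP5S was nearly equal in the 3 siSRSF1-3 libraries, at 3.75, 3.74 and 3.55 FPKM, all above its blank values.

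The direct comparison of the siRNAs gave 37 of 40 genes higher with siSRSF1-3 than with siSRSF1-2 by sign, where 48.9% of all genes were higher and 51.1% lower, with a median of 1.25 on the log2 scale (all genes -0.02). With the common FPKM sum 32 were higher and 8 lower. In 34 genes the groups did not overlap, with siSRSF1-3 higher, where 27% of all genes did so, and in COX7A1 it was lower (27.6%). No gene passed the threshold (0 of 40), nor did any with voom, and 0.0342% of all genes passed upward and 0.0513% downward. For unadjusted p below 0.05 and that size of change, 26 genes were higher and 1 lower, where 9.01% and 7.42% of all genes were. Without siSRSF1-3 replicate 3, 31 genes passed upward and 1 downward, where 2807 of all genes passed upward and 2551 downward (30.6% in all).

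The smallest adjusted p in each complex belonged to UQCRFS1, COX7A2 and ATP5MD. UQCRFS1 had 48.2, 49.1 and 46.9 FPKM with siSRSF1-2, below all 3 siSRSF1-3 values (1.02 ± 0.29, limma adjusted p = 0.082). COX7A2 had 51.9, 50.0 and 54.1 FPKM with siSRSF1-2, also below them (1.27 ± 0.34, adjusted p = 0.080). ATP5MD, a small membrane subunit also called DAPIT, had 90.1, 94.9 and 101 FPKM with siSRSF1-2 and 475, 278 and 145 with siSRSF1-3, with 125, 122 and 123 in blank (1.49 ± 0.43, adjusted p = 0.082).

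For ATP5MD the blank libraries lay between those of the siRNA groups, which are both set against the same blank libraries. The gene lower with siSRSF1-3 than with siSRSF1-2 without overlap was COX7A1, at 0.507, 0.313 and 0.542 FPKM against 0.831, 1.11 and 1.07 (-1.01 ± 0.28, limma adjusted p = 0.081), on at most 38 reads in any library.

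With OE-LINC01134 the genes were slightly lower than in blank. The median log2 fold change was -0.13, against 0.05 over all genes, with -0.18 in complex III, -0.14 in complex IV and -0.06 in complex V. By sign 33 of 40 genes were lower and 7 higher, where 45.1% of all genes were lower and 54.9% higher. With that common FPKM sum the split was 21 lower and 19 higher and the complex V median turned to 0.03, and with the gene length trend removed it was 23 and 17, with a complex V median of 0.02.

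No gene passed the threshold with OE-LINC01134 (0 of 40, 0 with voom), which 0.257% of all genes passed upward and 0.593% downward. For unadjusted p below 0.05 and that size of change the count was 0 too, where 2.45% of all genes were higher and 5% lower. Without a minimum fold ATP5PO alone fell at an adjusted p under 0.05, where 0.73% of all genes fell and 0.45% rose. In 15 genes all OE-LINC01134 libraries lay below all blank libraries (13.8% of all genes) and in 1, ATP5S, above (16.8%). Without OE-LINC01134 replicate 2, the library that resembled blank replicate 1, 8 genes fell and 1 rose at an adjusted p under 0.05 (12% of all genes fell and 13.5% rose). Without blank replicate 1, 3 fell and 1 rose (6.31% and 7.61% of all genes). Without any of the other 4 libraries 0 did, where at most 0.0399% of all genes fell and 0.0114% rose.

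ATP5PO had 10.9, 11.7 and 12.2 FPKM in blank and 7.44, 7.23 and 7.06 with OE-LINC01134. The groups did not overlap, and the log2 fold change was -0.67 ± 0.11 (SE, limma adjusted p = 0.047), with adjusted p from 0.0116 to 0.654 over the alternatives. It was 7.01, 7.73 and 8 with siSRSF1-2 (-0.61 ± 0.08, adjusted p = 0.0051), the 2 comparisons sharing the blank libraries. The gene lies on chromosome 21 at 33903453 to 33915980, on the minus strand.

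COX4I1 had 53.1, 55.3 and 52.3 FPKM with OE-LINC01134, below 66.5, 70.1 and 71.4 in blank (-0.37 ± 0.09, limma adjusted p = 0.079). UQCRC2 had 14.0, 13.9 and 13.7 FPKM, below 17.1, 16.8 and 18.2 in blank (-0.32 ± 0.10, adjusted p = 0.11). Both groups were free of overlap, but neither gene passed.

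ATP5MF, a membrane subunit of the ATP synthase, varied in another way. It had 85.3 FPKM in blank replicate 1 and 42.9 and 43.3 in replicates 2 and 3, and 80.9, 82.4 and 76.9 with OE-LINC01134. Its SD in blank, 0.569 on the log2 scale, was the largest of the 40 genes, and its log2 fold change of 0.56 ± 0.27 did not pass (limma adjusted p = 0.23). Its span overlaps CPSF4 on the opposite strand, which had 24.5, 18.5 and 18.9 FPKM in blank and 43.2, 39.9 and 44.4 with OE-LINC01134, and PTCD1 on its own strand. Whether reads were counted by strand is not given in the sources used here, so reads of overlapping genes cannot be told apart. Such overlaps concern 29 of the 46 genes, with 18 overlapping genes at 0.5 FPKM or more.

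The 3 genes of subunit c encode the same mature protein and differ in their import sequences. Their shares of the summed FPKM in blank were 45.5% ± 2.7 for ATP5MC2, 29.7% ± 1.7 for ATP5MC1 and 24.8% ± 1.3 for ATP5MC3 (SD, n = 3). The order of these shares depends on the lengths in the file, 3991, 2615 and 6780 bases. By reads it differed, with 4987, 4762 and 5515 of ATP5MC2 in the blank libraries. ATP5MC1 had 2432, 1938 and 2179 reads there and ATP5MC3 had 5201, 4017 and 4998. The share of ATP5MC3 was 26, 23.5 and 25% in blank, 19.3, 20.1 and 19.8% with siSRSF1-2, 9.08, 15.2 and 18.8% with siSRSF1-3, and 18.6, 23.8 and 20% with OE-LINC01134. It was below every blank library in all siRNA libraries and in 2 of the 3 OE-LINC01134 libraries.

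The log2 ratio of ATP5MC2 to ATP5MC3 was higher than in blank by 0.47 with siSRSF1-2, by 1.01 with siSRSF1-3 and by 0.38 with OE-LINC01134, without overlap each time. Each exact two-sided permutation p was 0.1, the smallest possible, and 0.171 after adjustment over the 12 ratios tested. The log2 ratio of COX7A2 to COX7A1 was 5.97, 5.49 and 5.67 with siSRSF1-2, 8.57, 8.77 and 7.11 with siSRSF1-3 and 6.21, 7.11 and 6.56 in blank. It differed from blank by -0.92 and 1.53 (exact permutation p = 0.1 each), and rests on few reads of COX7A1. The ratio of ATP5MC2 to ATP5MC1 differed from blank by at most 0.12 in the 3 groups, with exact permutation p of 0.5 to 0.8.

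Gene length moved with the fold changes in all genes, and the subunit genes are mostly short. Among all protein-coding genes the median log2 fold change with siSRSF1-3 was 0.75 for genes under 1000 bases, 0.55 from 1000 to under 2000, 0.18 from 2000 to under 4000, -0.09 from 4000 to under 8000 and -0.26 from 8000. With siSRSF1-2 it ran the other way, at -0.31, -0.19, -0.11, 0.02 and 0.15. In siSRSF1-3 replicate 3 it lay between 0.01 and 0.04 in all 5 classes, while in replicate 1 it ran from 1.46 to -0.42.

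The subunit genes of these classes had medians of 1.12 (5 genes), 0.84 (8), 0.88 (19), 0.29 (5) and 0.46 (3) with siSRSF1-3, each above the median of all protein-coding genes of that length. Values within a class were wide: the 5 genes from 4000 to under 8000 bases ran from -0.34 (UQCRC2) to 1.29 (ATP5F1E), and the 3 longer ones from -0.32 (ATP5F1A) to 0.99 (UQCRB). Across the 40 genes, which share libraries, Pearson's r between log2 fold change and log2 length was -0.24 with siSRSF1-3 and 0.14 with siSRSF1-2, given as a description. With a loess trend on length removed from each library, the median of the 40 genes was 0.72 with siSRSF1-3 and -0.29 with siSRSF1-2. In that setting 19 genes fell with siSRSF1-2 at an adjusted p under 0.05 (limma), where 11.5% of all genes fell. The part of length in the results was not tested further.

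**Figure D5:**
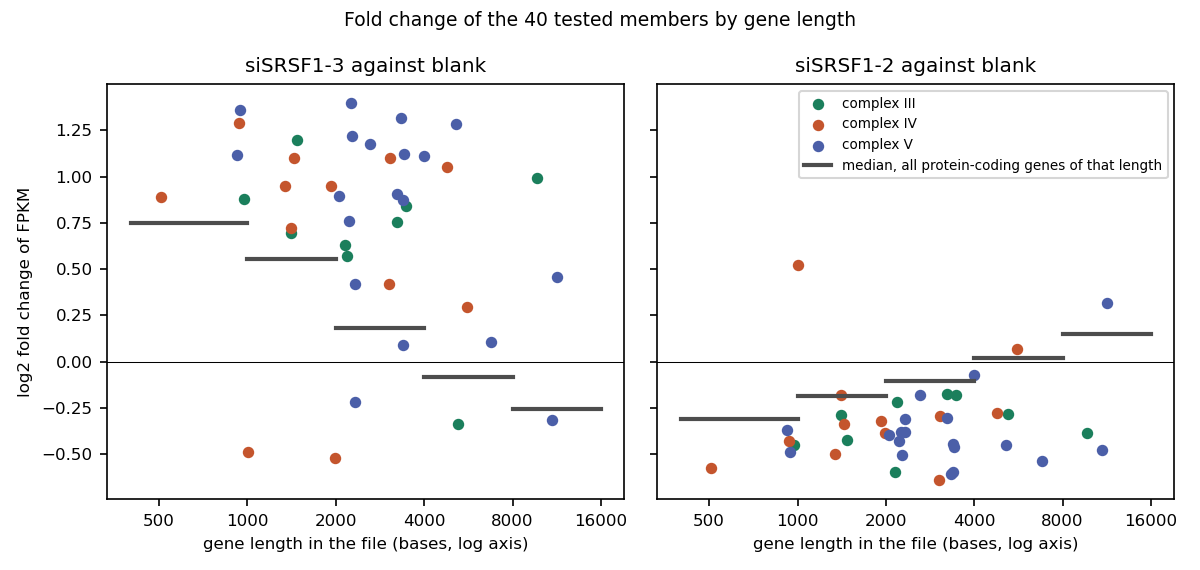
Log2 fold change of FPKM against gene length (bases, log axis) for the 40 tested genes with siSRSF1-3 (left) and siSRSF1-2 (right) against blank; horizontal bars give the median of all protein-coding genes in each length class. The bars run from 0.75 to -0.26 on the left and from -0.31 to 0.15 on the right.

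The other genes of the respiratory chain were described in the same way, from lists chosen by name. The list of 38 genes for complex I also took in NDUFA4, which is now counted with complex IV. For these 38 genes the log2 fold changes centred on a median of 0.80 with siSRSF1-3, -0.24 with siSRSF1-2 and -0.01 with OE-LINC01134. The siSRSF1-3 libraries disagreed here too, with medians of 1.37, 1.0 and 0.04 relative to blank in replicates 1, 2 and 3. With siSRSF1-2, 16 of the 38 fell and 1 rose at an adjusted p under 0.05 without a minimum fold. Of all genes 12.8% fell and 14% rose by that rule. NDUFC2, an accessory subunit, alone passed the full threshold (-1.30 ± 0.13, limma adjusted p = 0.0024), which 2.73% of all genes passed downward. The smallest adjusted p in this list was 0.086 with siSRSF1-3 (NDUFS4, 1.18 ± 0.30) and 0.080 with OE-LINC01134 (NDUFV2, 1.13 ± 0.28).

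The 4 subunits of complex II, which has no mitochondrially encoded part, had medians of 0.08, -0.07 and 0.01 in the same order, and of -0.14, 0.38 and -0.02 in the single siSRSF1-3 libraries. The iron-sulfur subunit SDHB fell with siSRSF1-2 (-0.37 ± 0.10, limma adjusted p = 0.040, no minimum fold). Cytochrome c1, CYC1, had 218, 185 and 178 FPKM in blank and 271, 388 and 230 with siSRSF1-3 (0.58 ± 0.28, adjusted p = 0.21), highest in replicate 2. Cytochrome c, CYCS, fell with siSRSF1-2 (-0.35 ± 0.07, adjusted p = 0.013).

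The 13 protein-coding genes of mitochondrial DNA, which encode subunits of complexes I, III, IV and V, had medians of -0.01 with siSRSF1-3 (0.51, -0.30 and -0.28 in its single libraries), -0.21 with siSRSF1-2 and -0.44 with OE-LINC01134. None passed the threshold in these comparisons. Without a minimum fold 3 of the 13 fell with siSRSF1-2, where 12.8% of all genes fell. MT-CO2, subunit 2 of complex IV, fell with siSRSF1-2 at an adjusted p under 0.05 (-0.46 ± 0.07, limma adjusted p = 0.0075). With siSRSF1-3 it had 24334, 11979 and 8276 FPKM, against 9849, 9658 and 10366 in blank. MT-ND4L had 462, 571 and 2683 FPKM with siSRSF1-3 against 3402, 3535 and 3466 in blank (-1.96 ± 0.72, adjusted p = 0.14). These genes therefore moved unequally among themselves in siSRSF1-3 replicates 1 and 2.

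With OE-LINC01134, 10 of the 13 mitochondrially encoded genes lay below all blank libraries, where 13.8% of all genes did. The smallest adjusted p among them was that of MT-ND4 (-0.66 ± 0.14, limma adjusted p = 0.069). The assembly factors of complexes III, IV and V, of which 23 of 26 were tested, had medians of 0.50, -0.23 and 0.04, and of 0.77, 0.49 and 0.10 in the single siSRSF1-3 libraries. With siSRSF1-2, 7 of the 23 fell and 1 rose at an adjusted p under 0.05, where 12.8% of all genes fell and 14% rose. SURF1, a complex IV assembly factor, stood at -0.76 ± 0.08 (limma adjusted p = 0.0028). COX19 had the smallest adjusted p with siSRSF1-3 (1.0 ± 0.25, 0.080) and with OE-LINC01134 (0.85 ± 0.14, 0.050) in that list.

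Of the regulators of mitochondrial biogenesis, 7 of 8 were tested and none passed in any comparison with blank, with medians of -0.12, 0.16 and 0.09. GABPA, a transcription factor of respiratory genes, had 0.20 ± 0.07 with siSRSF1-2 (limma adjusted p = 0.086). The coactivator PPARGC1B had -1.42 ± 0.41 with siSRSF1-3 (adjusted p = 0.10), and the nuclear receptor ESRRA had -0.36 ± 0.10 with OE-LINC01134 (adjusted p = 0.093). PPARGC1A, with a mean under 0.5 FPKM, was not tested.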

How the data were processed

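RNA-seq of 12 U2OS libraries was analysed. The authors deposited FPKM for 58735 genes with lengths, coordinates and full names. The labels give mouse and a mouse genome build, but the identifiers are human Ensembl identifiers and U2OS is a human line, so the genes were read as human. The aligner and counting program are not given in the sources used here, and the authors compared groups with DESeq2. Symbols were assigned by hand from the full names and gene nomenclature numbers in the file. No human reference was used here, so no sequences are printed.

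FPKM times length gave whole reads (within 0.001 of a read) for 100% of values, and the implied library size was 0.712 and 0.888 times the own read total in siSRSF1-3 replicates 1 and 2, and 0.990 to 1.09 times elsewhere. The 17538 genes whose FPKM averaged 0.5 or more were log2-transformed after adding 0.1 and tested with limma 3.58.1 (eBayes with trend, R 4.3.3) on the 3 + 3 libraries of each of 4 comparisons. Adding 0.1 before the log understates the change of low genes. Adjusted p are Benjamini-Hochberg values over all genes tested, called below 0.05 where the change also exceeded 1 on the log2 scale. Medians and counts over the genes are descriptions.

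Members and lists were chosen with earlier results of these data known. Values in every library are given for the gene of each complex with the smallest adjusted p in each comparison, the genes with the highest mean of each complex and the isoform pairs, and further genes were chosen after their values were seen. Of the other lists, genes past the threshold or with the smallest adjusted p against blank are named for most comparisons. Alternatives were other pseudocounts, filters, scalings, spread models and tools, removal of a length trend, a block on replicate number and leaving out single libraries.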

Additional observations from a re-analysis of the deposited data

How the results depend on the processing

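With 1 fit over the 4 groups, 7 genes passed with siSRSF1-3 against blank (13.8% of all genes) and 26 against siSRSF1-2 (15.6%). Leaving out a library gave counts from 0 to 28 and medians from 0.51 to 1.33 with siSRSF1-3, counts from 0 to 32 and medians from 0.86 to 1.68 between the siRNAs, and medians from -0.40 to -0.32 with siSRSF1-2 and from -0.16 to -0.09 with OE-LINC01134, where the count stayed at 0. The 28 and the 32 came without siSRSF1-3 replicate 3, where 23.9% and 30.6% of all genes passed. With siSRSF1-3 replicate 3 alone (chosen after seeing the data) the median was -0.017 against blank and 0.33 against siSRSF1-2. In the main fits, 4 genes passed at unadjusted p with siSRSF1-3 against blank, where 7.57% of all genes passed upward and 7.24% downward. Against siSRSF1-2, 27 passed, where 9.01% of all genes passed upward and 7.42% downward. Without a minimum fold 30 passed with siSRSF1-2, where 12.8% of all genes fell and 14% rose. Only 1 passed with OE-LINC01134, where 0.73% of all genes fell and 0.45% rose.

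With equal FPKM sums the median of all genes was -0.44 with siSRSF1-3, 0.15 with siSRSF1-2 and 0.14 with OE-LINC01134, and with own read totals it was -0.26 with siSRSF1-3. The subunit genes' medians with equal sums were 0.44 with siSRSF1-3 (0.31 in complex III), -0.25 with siSRSF1-2, -0.041 with OE-LINC01134 and 0.67 between the siRNAs. Removing the length trend gave -0.29 with siSRSF1-2 and -0.070 with OE-LINC01134. The 29 genes that fell with siSRSF1-2 at an adjusted p alone numbered 19 without the length trend, 0 in 1 fit over 4 groups, 0 with near-identical libraries averaged and 8 to 31 without a library.

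Same-numbered libraries did not deviate together (correlations from -0.081 to 0.042), so the numbers gave no pairing. With the replicate block, 16 genes fell with siSRSF1-2 at an adjusted p alone, where 7.01% of all genes fell. There 0 subunit genes passed the threshold in each of the 4 comparisons. Over all genes 3.88% passed it with siSRSF1-2 and 0.0228% with OE-LINC01134. In both comparisons of siSRSF1-3, 0 of all genes passed, so the subunit count there could only be 0. With 3 libraries a group and the wide spread of siSRSF1-3, the SE of a log2 fold change had a median of 0.402 there, against 0.0753 with siSRSF1-2.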
